A study of Homo sapiens with 12 samples.

Results

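The genes described here changed in the same direction and by a similar size with 2 agents that activate p53 by different routes, doxorubicin and nutlin-3. For each of 13673 genes, the response to doxorubicin and the response to nutlin-3 were averaged and the mean was tested as a single contrast. A gene was said to move alike when this mean was called (limma, adjusted p under 0.05) and reached 1.5-fold, when each agent's own response was called in the same direction, and when the 95% interval of the difference between the responses lay wholly inside 1.5-fold either way. The bound is 0.585 on the log2 scale. These criteria chose 282 of the 13673 genes, of which 139 rose and 143 fell. Their changes with each agent, and the smallness of the differences between them, are therefore properties of the choice and are given as a description.

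The cells were U2OS, an established human osteosarcoma line that the labels give as carrying wild-type p53, and all 4 groups were this line. There were 12 Affymetrix U133 Plus 2.0 arrays, 3 per group: untreated cells, cells given 0.6 µg/ml doxorubicin, cells given the solvent DMSO at 0.1%, and cells given 10 µM nutlin-3, all at 24 hours. Doxorubicin was set against the untreated arrays and nutlin-3 against the DMSO arrays, so the responses share no array. Since the labels do not give the replicates as separate cultures, the p-values reflect the spread among these arrays alone, and that spread may be technical.

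Doxorubicin is a topoisomerase II poison that intercalates into DNA and causes strand breaks, and the damage kinases then stabilise p53. Nutlin-3 occupies the p53 pocket of the ubiquitin ligase MDM2 and stabilises p53 without damaging DNA. The p53 protein is a transcription factor that binds response elements and raises its targets directly. Its target p21, the product of *CDKN1A*, inhibits cyclin-dependent kinases, after which RB family proteins and the DREAM complex hold down genes of the cell cycle through E2F and CHR (cell cycle genes homology region) promoter elements. The p53 transcript was not analysed here.

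Values are linear signal intensities, and changes are log2 differences of (signal + 16), which understates the change of dim genes. Array medians lay between 79.6 and 113.6, and the number of arrays limits the precision. Replicates of a group correlated at 0.98 to 0.991 across genes. Of the osteoblast markers, *COL1A1*, *SPARC* and *RUNX2* were well expressed (2 of 5 tested rose in the mean and 2 fell). *SP7*, *COL1A2*, *ALPL*, *IBSP* and *TWIST1* lay under the signal filter of 49.3. *BMP2* had mean signals of 285.2 untreated, 1910 with doxorubicin, 269.8 in DMSO and 408 with nutlin-3. Summed leukocyte markers were low throughout (6 probe sets, 223.5 to 342.1 untreated, 411 to 497 with doxorubicin, 189 to 324 in DMSO and 404 to 604 with nutlin-3). *PTPRC*, *CD14*, *LYZ* and *CD74* lay under the filter. Of the 2 tested, *CD3E* and *ITGB2*, 1 rose in the mean and 1 was not called. *ITGB2* had mean signals of 100.7 untreated, 212.1 with doxorubicin, 129.3 in DMSO and 348.8 with nutlin-3. Of epithelial markers 2 of 6 fell in the mean and 4 were not called, and both tested endothelial markers were not called. The epithelial markers *KRT18*, *KRT8* and *EPCAM* were well expressed, with untreated mean signals of 17870, 8277 and 1625, while *KRT5* and *ESRP1* lay under the filter. RNA integrity was read from control probe sets. For *ACTB* the ratio of 3' to 5' signal was 3.12 ± 0.577 (SD, n = 3) with doxorubicin and 1.53 ± 0.0754 (n = 3) in untreated cells (exact 2-sided permutation test, p = 0.1, the smallest this design allows), and 1.31 ± 0.026 against 1.28 ± 0.0281 for nutlin-3 against DMSO (p = 0.2). The part of RNA integrity in the doxorubicin values below, and of the leukocyte sum in any rise, was not tested. In bulk RNA, fewer cells of a cycle phase and less RNA per cell cannot be told apart.

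The mean response was called for 7078 genes, 51.8% of those tested, with 3675 higher (26.9%) and 3403 lower (24.9%). Doxorubicin alone was called for 55.7% of the genes tested (30.1% higher and 25.6% lower) and nutlin-3 alone for 26.4% (12.5% and 13.9%). Most of these genes were not called with both agents. Of the 7078, 2141 were called with both agents in the same direction (15.7% of the genes tested), 158 were called with both in opposite directions, 3751 with doxorubicin only and 665 with nutlin-3 only. A further 363 passed with neither agent alone. Among the 2141, 1495 reached 1.5-fold, 816 rising and 679 falling. The difference between the responses, a contrast called for 39.5% of all genes tested, was called for 820 of these 1495, and the doxorubicin change was the larger in 1105. The genes rising alike were 1.02% and those falling alike 1.05% of the genes tested. With each array centred on its median in place of the authors' scaling, 72 genes rose alike and 130 fell alike, and they included 122 of the 282. That setting lowered the share of the mean's calls that were higher from 51.9% to 38.3% and the median doxorubicin change of all genes from 0.08 to -0.10, while all 282 kept their direction and their call in the mean.

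**Figure D1:**
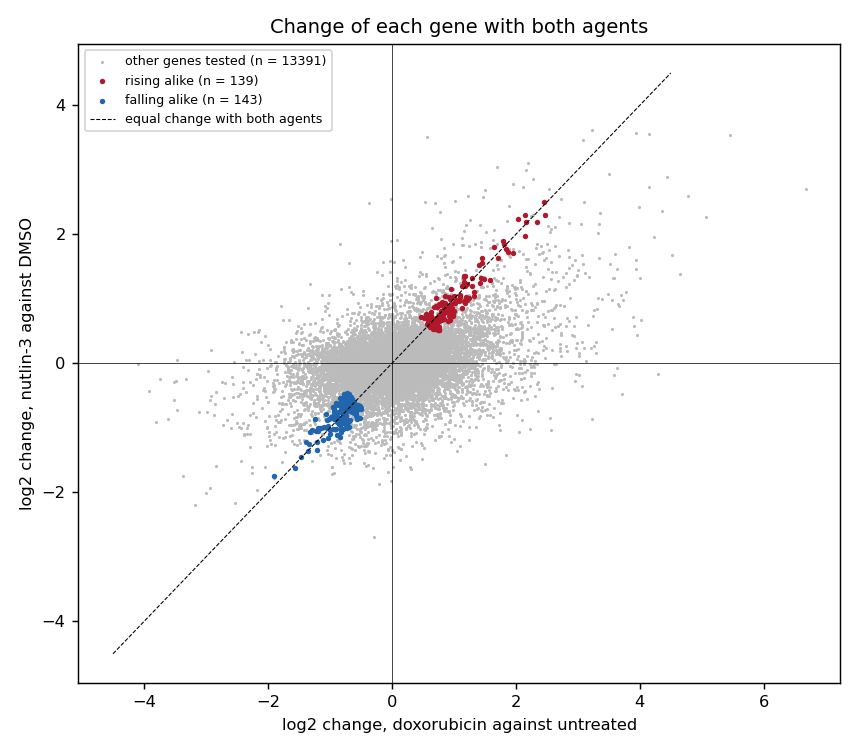
Log2 change with doxorubicin against untreated (x axis) and with nutlin-3 against DMSO (y axis) for each gene tested, one point a gene, with the 139 genes rising alike in red and the 143 falling alike in blue. The coloured genes lie along the dashed line of equal change because they were chosen to do so, while over all 13673 genes the Pearson correlation of the changes, across genes that are not independent replicates, was 0.436.

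Rising members had mean changes of 0.59 to 2.48 with a median of 0.84, and 43 of them reached 2-fold. Falling members had changes of -1.83 to -0.59 with a median of -0.78, and 23 reached 2-fold. The median over all genes was 0.03. The difference between the responses had a median size of 0.12 among members and a greatest size of 0.37, against 0.42 over all genes tested and 0.54 over the 1495 genes of the same direction and 1.5-fold size. Members were also bright. Their median mean signal was 1934 for rising and 1976 for falling members, against 661 over all genes tested, and no member had a group mean under the filter. The median SE of the difference was 0.15 among members and 0.19 over all genes. In 281 of the 282 no treated array overlapped a control array of its own comparison with either agent, a pattern seen in 21.8% of all genes tested. The exception was *TSPYL1*, where the doxorubicin array at 5213 lay below the untreated array at 5270.2. The criteria ask for a call with each agent and a narrow interval, so the separation and the smaller SE follow from the choice. A dim gene with equal responses can miss the bound, so the brightness of members is not independent of the choice either.

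**Figure D2:**
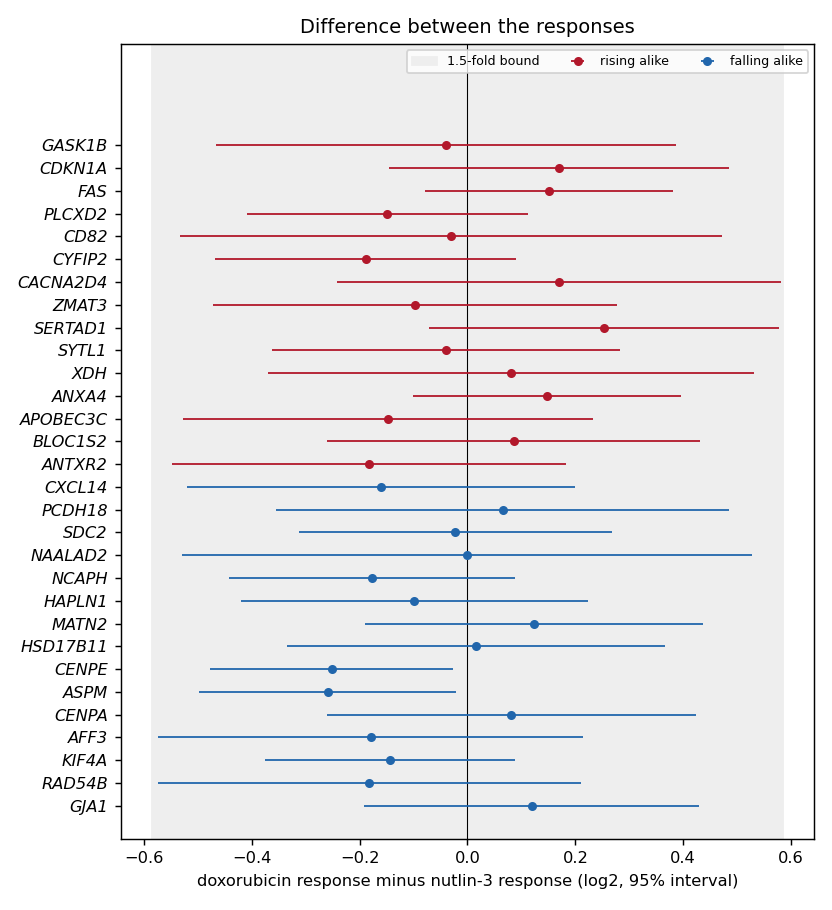
Doxorubicin response minus nutlin-3 response (log2, points) with its 95% interval (lines) for the 15 members with the largest rises (red) and the 15 with the largest falls (blue). The shaded band is 1.5-fold either way, 0.585 on the log2 scale, and every interval lies inside it by the way the genes were chosen.

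Targets of p53 rose in every role listed. Of 121 genes in 7 lists of p53 targets, 113 rose in the mean and 3 fell (26.9% and 24.9% of all genes tested), while 25 rose alike (1.02%). Most of the rest rose in the mean but did not meet the criteria for moving alike. The plot of medians by list shows the doxorubicin median above the nutlin-3 median in each of the 7 lists. Such a count and median describe these lists beside all genes tested and are not tests of the lists. These lists and those below were chosen with earlier results of these data known, so their counts are not independent of the data.

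Among the regulators of p53 and of its feedback, 10 of 12 rose in the mean and the other 2 were not called (median 1.00), and 3 rose alike. *ZMAT3*, a zinc finger protein that binds RNA, had signals of 2893, 2681 and 3256 on the untreated arrays, 9690.1, 12742 and 8589.9 with doxorubicin, 1629, 2089 and 1761 in DMSO and 7052, 6523 and 6761 with nutlin-3. Every treated array stood above every control array, and the untreated arrays stood above those in DMSO (-0.69 for DMSO against untreated, limma, adjusted p = 0.0018). The mean rise was 1.84 (SE 0.089), made up of 1.79 with doxorubicin and 1.89 with nutlin-3. *TRIM22*, a ubiquitin ligase of the tripartite motif family, rose by 1.47 (SE 0.06), and *AEN*, an exonuclease linked to apoptosis, by 0.64 (SE 0.067). *MDM2*, the ligase that nutlin-3 blocks, rose by 1.78 in the mean, with 1.42 with doxorubicin and 2.14 with nutlin-3, and was not among the members. The cyclin G1 gene *CCNG1* had -0.08 with doxorubicin and 0.95 with nutlin-3.

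All 15 measured targets that act in arrest rose in the mean (median 1.25), and 5 rose alike. *CDKN1A* (chr6:36676463-36687332 on GRCh38.p14) encodes p21. It read 1352, 1399 and 1333 on the untreated arrays, 6882, 8951 and 7200.4 with doxorubicin, 1292, 1603 and 1627 in DMSO and 7361, 7143 and 7906 with nutlin-3. Treated arrays stood about equally high with both agents, far above all 6 control arrays. The mean rise was 2.39 (SE 0.075), or 5.23-fold, and the difference between the responses was 0.17 with a 95% interval of -0.15 to 0.48. *SERTAD1*, whose product binds CDK4, rose by 1.83 (SE 0.077), from 857, 829 and 807 to 3187, 2932 and 3757 with doxorubicin and from 774, 954 and 958 to 3136, 2675 and 3037 with nutlin-3. No treated array overlapped a control array. *SERTAD1* moved alike in 12 of 24 planned settings, and also with the controls pooled or exchanged. The antiproliferative gene *TOB1*, the kinase gene *PLK2* and *RPS27L*, a paralogue of a ribosomal protein gene, rose by 0.87, 0.78 and 0.66. Other *RPS27L* probe sets gave 0.43 and 1.73, and 0.37 and 0.67, for doxorubicin and nutlin-3 in turn.

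Of 16 targets in death receptor signalling and apoptosis, 15 rose in the mean (median 0.92) and 3 rose alike. *FAS* (chr10:88964050-89017059), the receptor of Fas ligand, read 1157, 1121 and 1168 on the untreated arrays, 6196, 5669 and 5863 with doxorubicin, 1476, 1349 and 1291 in DMSO and 6449, 6350.3 and 6192 with nutlin-3. Every treated array lay above every control array, the treated ranges of the agents met, and DMSO stood above untreated by 0.25 (limma, adjusted p = 0.039). *FAS* rose by 2.27 (SE 0.054), with a difference of 0.15 (95% interval -0.08 to 0.38). *CYFIP2*, which encodes a subunit of the WAVE complex that controls actin branching, had signals of 1347, 1314 and 1195 on the untreated arrays, 4809.6, 5615 and 5635 with doxorubicin, 1095, 1149 and 1182 in DMSO and 4993, 5270.0 and 6048 with nutlin-3. It rose by 2.14 (SE 0.066), with no overlap of treated and control arrays. *BCL2L1*, whose main product Bcl-xL restrains apoptosis, rose by 0.97 (SE 0.099), and *BAK1*, which encodes a pore-forming member of the same family and was in no list, rose by 0.85 (SE 0.12). Members with opposite roles in apoptosis thus rose together. *BAK1* moved alike in 12 of 24 planned settings. *BAX* was in the list and rose by 0.53 with doxorubicin and 1.19 with nutlin-3, a called difference (limma, adjusted p = 0.0011).

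DNA repair and nucleotide supply had the largest share of its genes moving alike of the 7 target lists, at 4 of 9, and all 9 rose in the mean (median 1.06). The median change was 1.16 with doxorubicin and 1.15 with nutlin-3. *DDB2* and *XPC* encode the proteins that recognise ultraviolet damage for nucleotide excision repair. *DDB2* read 2405, 2310.3 and 2392 on the untreated arrays, 5344, 4968 and 5619 with doxorubicin, 2092, 2198 and 2049 in DMSO and 4369, 3932 and 4168 with nutlin-3, with every treated array above every control array. Its rise was 1.06 (SE 0.054), and that of *XPC* was 1.05 (SE 0.078). *POLH*, the translesion polymerase that copies past thymine dimers, rose by 1.06 (SE 0.065), with 1.18 and 0.93 for the agents in turn. The remaining member of the list, *BLOC1S2*, is known for complexes that build and position lysosomes and not for repair, and it rose by 1.67 (SE 0.082). Only 3 of the 9 genes had a called difference between the responses. One of these was *ASCC3*, a helicase gene, at -0.69 with doxorubicin and 1.18 with nutlin-3.

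Metabolic and secreted targets each had 1 of 18 genes rising alike, against 1.02% of all genes tested. In metabolism and lysosome 16 of 18 rose in the mean and 1 fell (*LPIN1*, -0.55), with a median of 1.59, and the difference between the responses was called for 14, with the larger value for doxorubicin in 12. The single gene moving alike was *CMBL*, a hydrolase gene, which rose by 0.66 by its brightest probe set. Another bright probe set of *CMBL*, also moving alike, gave 2.26 (2.20 with doxorubicin and 2.33 with nutlin-3), so the size of its rise depends on the probe set. In the secreted and surface list 16 of 18 rose and 1 fell (*TNFRSF19*, -0.71), and *NINJ1*, which encodes a cell surface protein that ruptures the membrane of dying cells, was the single gene moving alike. *NINJ1* read 931, 968 and 868 on the untreated arrays, 2112, 2719 and 2906 with doxorubicin, 683, 657 and 693 in DMSO and 1907, 2026 and 2113 with nutlin-3 and rose by 1.5 (SE 0.076). Among 33 other targets 32 rose and 8 rose alike, led by *SYTL1* (vesicle traffic, 1.83), *APOBEC3C* (a cytidine deaminase, 1.73) and *FBXO22* (an F-box ubiquitin ligase subunit, 1.26).

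**Figure D3:**
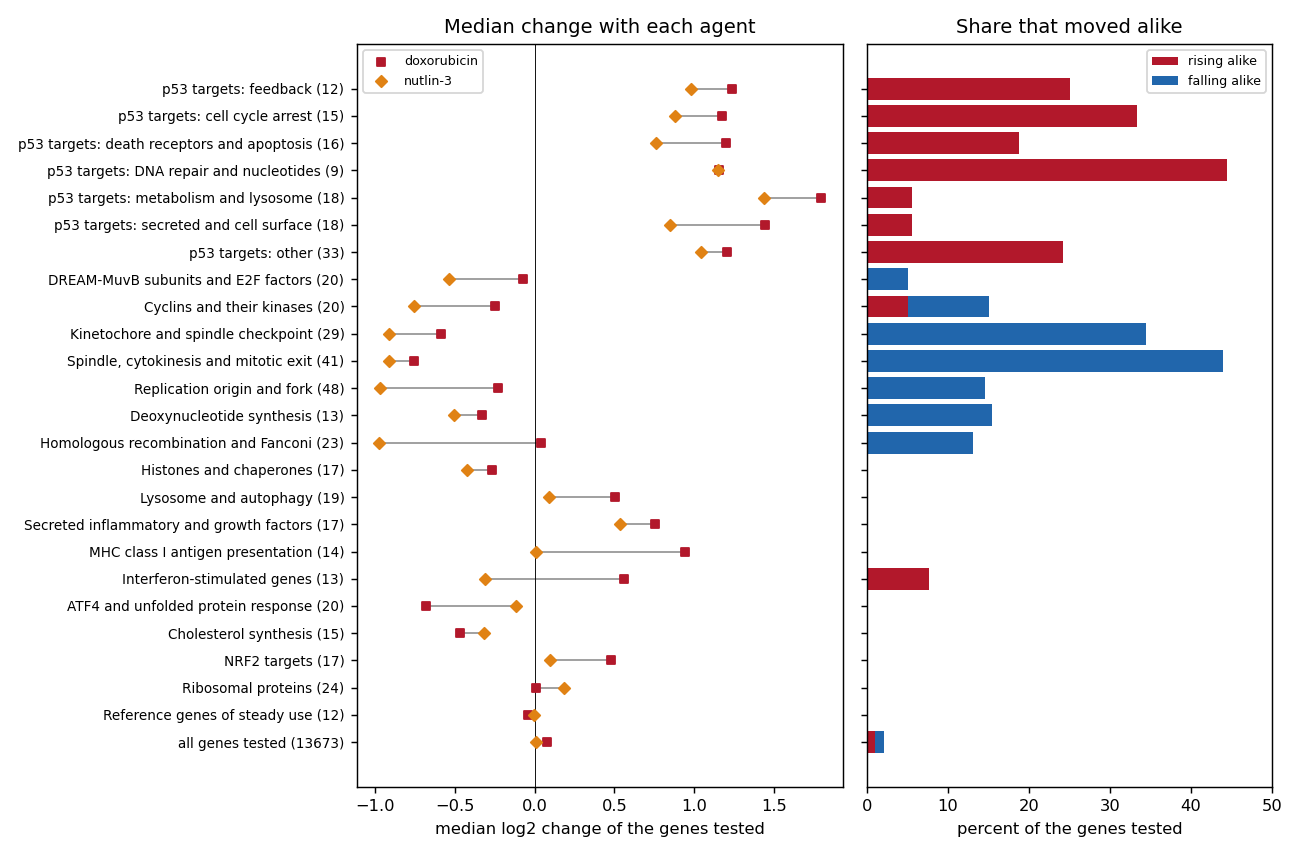
Left, the median log2 change of the tested genes of each list with doxorubicin (squares) and nutlin-3 (diamonds), number of genes in parentheses. Right, the percent of each list that rose alike (red) or fell alike (blue). The 7 p53 target lists have positive medians with both agents, mitotic lists have negative medians with both, and replication and recombination lists have nutlin-3 medians far below the doxorubicin medians.

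Most rising members, 112 of 139, belonged to no list. The largest rise among members was that of *GASK1B* (chr4:158124474-158173025), which encodes a Golgi kinase-like protein. It read 1819, 2120.3 and 1969.6 on the untreated arrays, 12248, 9852 and 10730.3 with doxorubicin, 1180.3, 759 and 786 in DMSO and 4734, 5970.4 and 4735 with nutlin-3. The rise was 2.48 (SE 0.10), 5.58-fold, from starting levels that differed, since DMSO stood below untreated by 1.13 on the log2 scale (limma, adjusted p = 0.0001). The fold was matched between the agents (interval of the difference -0.47 to 0.39) but the final signal was not.

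*PLCXD2*, a gene of the phospholipase C X-domain family, read 816, 752 and 828 on the untreated arrays, 3817, 3539.8 and 3453 with doxorubicin, 946, 992 and 1055 in DMSO and 4741, 4747 and 5458 with nutlin-3 and rose by 2.23 (SE 0.062). *CD82*, a tetraspanin known as a suppressor of metastasis, read 469, 382 and 300.3 on the untreated arrays, 1901, 1689 and 1675 with doxorubicin, 252, 173 and 254 in DMSO and 1305, 1022 and 943 with nutlin-3 and rose by 2.18 (SE 0.12). Treated arrays lay above all controls for both genes. For *CD82*, DMSO stood below untreated (-0.72, limma, adjusted p = 0.0092), and it moved alike in 10 of 24 planned settings and with the controls neither pooled nor exchanged. For *PLCXD2*, DMSO stood above untreated (0.31, adjusted p = 0.024). *CACNA2D4*, a calcium channel subunit gene, rose by 2.06, *XDH*, the xanthine dehydrogenase of purine breakdown, by 1.81, *ANXA4*, a calcium-dependent membrane-binding protein gene, by 1.8 and *ANTXR2*, a receptor of anthrax toxin and of matrix proteins, by 1.54. *CACNA2D4* moved alike in 11 of 24 planned settings and with the controls neither pooled nor exchanged. In the interferon-stimulated list *RIGI*, which encodes a sensor of viral RNA, was the single gene moving alike (0.59). Of the 13 tested, 5 rose in the mean and 3 fell, against 26.9% and 24.9% of all genes tested. Other *RIGI* probe sets had mean changes of 0.05 and -0.04, neither called. *RIGI* moved alike in 10 of 24 planned settings and with the controls neither pooled nor exchanged.

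**Figure D4:**
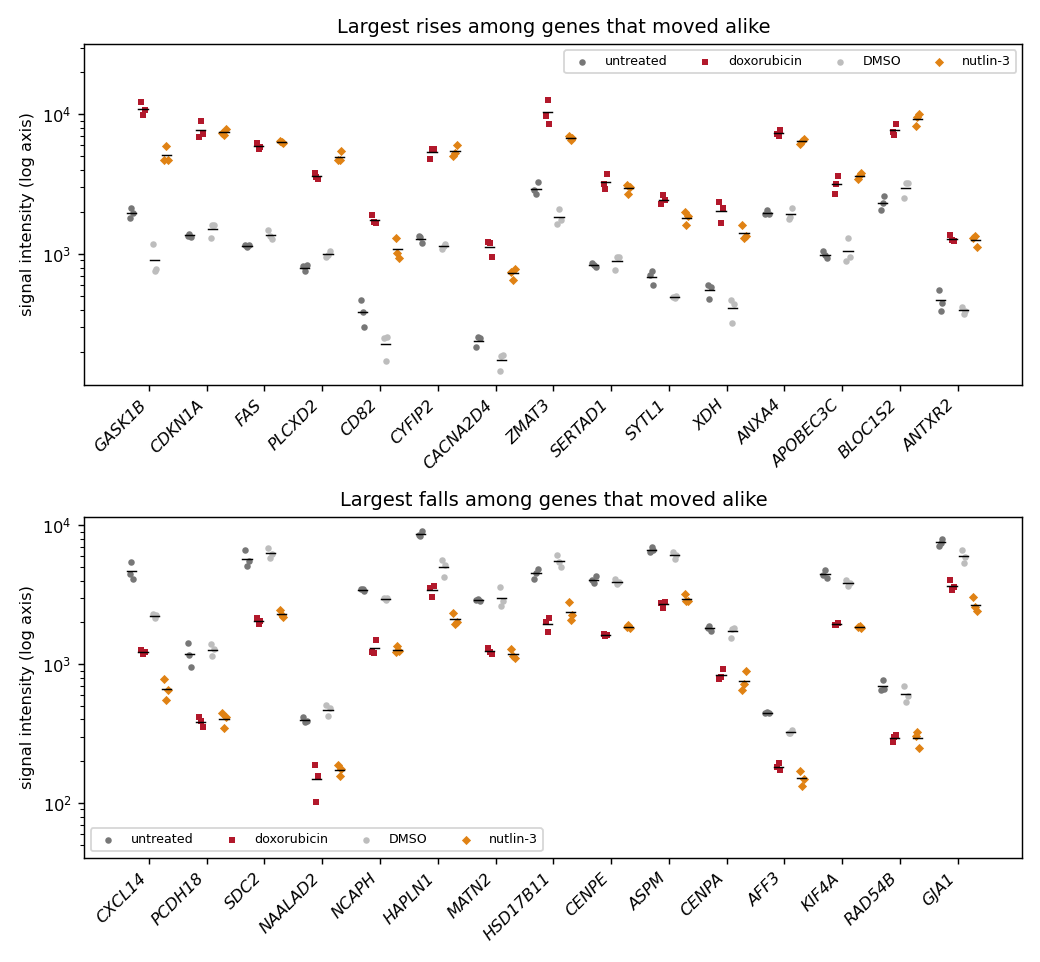
Signal intensity on a log axis for the 15 largest rises (top) and the 15 largest falls (bottom) among genes moving alike, each point one array and each bar the mean of 3 arrays. Treated arrays lie above both control groups for every gene of the top panel and below their own control for every gene of the bottom panel. Among the genes shown, *GASK1B*, *CXCL14* and *HAPLN1* have DMSO levels furthest below the untreated levels. Others, such as *CD82*, *ZMAT3* and *SYTL1*, have smaller gaps of this kind.

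The promoters of rising members were searched for the p53 half-site, the decamer that occurs in pairs in a response element, on both strands. RefSeq promoters (GRCh38.p14, 250 bases before to 50 after the transcription start) were matched for 106 of the 139 rising members. A match was present in 12.3% of these and in 5.26% of 11012 promoters of all genes tested, and in 14.3% of the 21 rising members of a p53 target list that had a promoter. The stretches below are the 150 bases before the start in the 3 members with the largest rises among the 8 that have a match there, with the match in capitals.

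EI24 (chr11:125569327-125569476, plus strand): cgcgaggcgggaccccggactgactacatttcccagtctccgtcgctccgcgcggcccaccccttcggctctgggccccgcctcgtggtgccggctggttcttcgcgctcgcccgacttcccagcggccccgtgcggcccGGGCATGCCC

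BAK1 (chr6:33580277-33580426, minus strand): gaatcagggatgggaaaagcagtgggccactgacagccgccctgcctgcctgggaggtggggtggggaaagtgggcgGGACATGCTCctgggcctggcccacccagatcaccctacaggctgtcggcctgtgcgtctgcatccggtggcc

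ZBTB38 (chr3:141324036-141324185, plus strand): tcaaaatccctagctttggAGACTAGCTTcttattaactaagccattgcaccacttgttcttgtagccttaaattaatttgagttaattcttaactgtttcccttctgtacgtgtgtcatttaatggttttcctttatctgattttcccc

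*EI24*, whose product sits in the endoplasmic reticulum and acts in autophagy, rose by 0.99 (SE 0.06), and *ZBTB38*, which encodes a zinc finger protein that binds methylated DNA, by 0.81 (SE 0.075). A match of this kind describes letters in a window and is not a binding site. As background, response elements are often found outside such windows.

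Genes of the cell division machinery made up the largest listed group of falling members. Over all genes tested 24.9% fell in the mean and 1.05% fell alike. Of 41 genes of the spindle, cytokinesis and mitotic exit, 39 fell in the mean and the other 2 were not called (median -0.85), and 18 fell alike. The median was -0.76 with doxorubicin and -0.91 with nutlin-3. *NCAPH*, a subunit of the condensin complex that compacts mitotic chromosomes, read 3454, 3479 and 3348 on the untreated arrays, 1221, 1208 and 1483 with doxorubicin, 2980.4, 2899.7 and 3022 in DMSO and 1219, 1348 and 1252 with nutlin-3. Both treated groups fell into one range, well under both control groups, and the change was -1.30 (SE 0.063). *ASPM*, which encodes a spindle pole protein, read 6399, 6939.8 and 6627 on the untreated arrays, 2741, 2555 and 2812 with doxorubicin, 6451, 5702 and 6122 in DMSO and 3188, 2836 and 2867 with nutlin-3 and changed by -1.17 (SE 0.056). *KIF4A*, a motor that binds chromosome arms and the midzone, changed by -1.11 (SE 0.055), with -1.19 and -1.04 for the agents in turn. *PRC1*, which bundles midzone microtubules, changed by -1.05, and the abscission factor gene *CEP55* by -0.98. *AURKA*, *BIRC5*, *CDCA8*, *NEK2*, *KIF2C* and *TOP2A*, which encodes the topoisomerase II that doxorubicin poisons, were also among the 18, at -0.88 to -0.60. *TOP2A* moved alike in 14 of 24 planned settings. Another bright probe set of *TOP2A* gave -0.23 with doxorubicin and -0.73 with nutlin-3, and a dimmer one -0.69 and -0.64. Other *BIRC5* probe sets gave -0.20 and -1.02, 0.08 and -0.23, and -0.95 and -0.82, the last moving alike.

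At the kinetochore, 27 of 29 genes fell, 1 rose and 10 fell alike (median -0.79). *CENPE*, a kinetochore motor, read 4014, 3870.3 and 4289.7 on the untreated arrays, 1640.1, 1592 and 1615 with doxorubicin, 4133, 3757 and 3918 in DMSO and 1853, 1915 and 1838 with nutlin-3. Every treated array lay below every control array, with the nutlin-3 arrays above those of doxorubicin. The change was -1.19 (SE 0.053). *CENPA*, the histone H3 variant that marks centromeres, read 1838, 1891 and 1727 on the untreated arrays, 780.3, 809.5 and 928 with doxorubicin, 1555, 1787 and 1827 in DMSO and 648, 725 and 887 with nutlin-3 and changed by -1.14 (SE 0.081). *CENPI* and *CENPF* both changed by -1.08, and the checkpoint genes *BUB1* and *MAD2L1* by -0.90 and -0.59. The one riser was *MAD1L1*, another checkpoint gene, at 1.37 in the mean, 1.10 with doxorubicin and 1.64 with nutlin-3.

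Promoters of falling members were searched for the CHR (TTTGAA or TTCGAA), the CCAAT box (CCAAT, bound by NF-Y) and the E2F site (TTCCCGC or the variants TTGGCGC and also TTCGCGC), each on both strands. The CHR is the element through which DREAM and MuvB complexes bind late cell cycle genes, usually near CCAAT boxes. RefSeq held a promoter for 122 of the 143 falling members. The stretches below are the 150 bases before the start of the 5 largest falls among the 19 members that have both the CHR and a CCAAT box there, printed to show how these elements lie together. Capitals mark CHR and CCAAT matches, and on the reverse strand these read TTCAAA and ATTGG.

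ASPM (chr1:197146670-197146819, minus strand): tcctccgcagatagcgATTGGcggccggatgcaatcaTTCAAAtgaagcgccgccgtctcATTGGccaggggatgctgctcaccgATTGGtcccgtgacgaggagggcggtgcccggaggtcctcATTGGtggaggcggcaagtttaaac

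CENPA (chr2:26785906-26786055, plus strand): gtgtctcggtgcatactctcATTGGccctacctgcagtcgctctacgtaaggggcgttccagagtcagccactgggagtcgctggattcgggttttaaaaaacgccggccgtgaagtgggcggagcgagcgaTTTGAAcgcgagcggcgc

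KIF4A (chrX:70289954-70290103, plus strand): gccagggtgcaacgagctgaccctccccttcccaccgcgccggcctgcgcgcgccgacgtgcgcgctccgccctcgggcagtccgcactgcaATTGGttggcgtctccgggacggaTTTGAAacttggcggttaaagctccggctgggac

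PRC1 (chr15:90994536-90994685, minus strand): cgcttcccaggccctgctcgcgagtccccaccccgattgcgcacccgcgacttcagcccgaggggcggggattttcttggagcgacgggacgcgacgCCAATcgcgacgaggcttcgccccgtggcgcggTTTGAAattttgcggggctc

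CEP55 (chr10:93496462-93496611, plus strand): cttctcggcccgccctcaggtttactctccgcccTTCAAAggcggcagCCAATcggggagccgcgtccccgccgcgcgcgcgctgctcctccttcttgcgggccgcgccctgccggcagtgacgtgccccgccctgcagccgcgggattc

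*ASPM* had 4 CCAAT boxes and 1 CHR in this stretch, and the other 4 genes had 1 of each. Over the whole window of 300 bases, a CHR was present in 32.0% of falling members with a promoter, 11.3% of rising members and 11.7% of promoters of all genes tested. The CCAAT box was present in 50.8%, 31.1% and 36.2% in the same order, the E2F site in 23.0%, 12.3% and 17.4%, and the CHR together with a CCAAT box in 23.8%, 2.83% and 4.96%. Between 100 bases before and 50 after the start, a CHR occurred in 22.1% of falling members, 4.72% of rising members and 4.63% of all promoters. Falling members in a cell cycle or replication list (37 promoters) had a CHR in 54.1% and a CCAAT box in 64.9%. The 85 falling members in none of these lists had a CHR in 22.4% and a CCAAT box in 44.7%. These shares are descriptions, and a match is not evidence of binding.

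**Figure D5:**
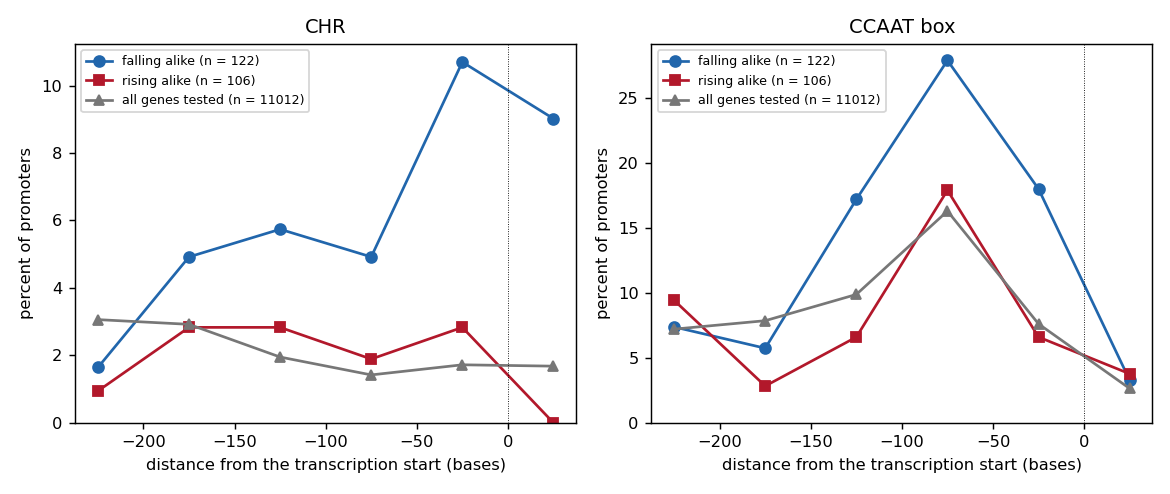
Percent of promoters with a CHR (left) or a CCAAT box (right) in bins of 50 bases along the window, against distance from the transcription start, for members falling alike (circles), rising alike (squares) and all genes tested (triangles). A CHR occurred in 10.7% of falling members in the bin just before the start and in 9.02% in the bin just after it, against 1.72% and 1.68% of all promoters.

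The upstream regulators of these genes and the cyclins moved less evenly. Among 20 DREAM-MuvB subunits and E2F factors, 11 fell in the mean and 4 rose (median -0.33), and the single gene moving alike was *RBL1*, which encodes p107. It read 870.5, 861 and 806 on the untreated arrays, 413, 521 and 408 with doxorubicin, 902, 897 and 857 in DMSO and 467, 509 and 467 with nutlin-3 and changed by -0.88 (SE 0.076), with every treated array below every control array. Its paralogue *RBL2*, which encodes p130, rose by 0.48 in the mean. *E2F2* and *E2F8* had changes of 0.02 and 0.31 with doxorubicin and of -1.61 and -1.64 with nutlin-3, and the differences were called (limma, adjusted p = 6.5e-06 and 4.5e-08).

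Of 20 cyclins and their kinases and phosphatases, 14 fell and 3 rose. *CCNA2*, the cyclin of S phase and G2, read 4917, 5127 and 5009.7 on the untreated arrays, 2627, 2561 and 2538 with doxorubicin, 4489.5, 4602 and 4584 in DMSO and 2239.6, 2245 and 2229.9 with nutlin-3. The values within each group were close, with nutlin-3 the lowest and untreated the highest, and the change was -0.99 (SE 0.048). Another bright probe set of *CCNA2* gave -0.48 with doxorubicin and -1.01 with nutlin-3 (interval of the difference 0.21 to 0.86). *CCNB2*, a mitotic cyclin gene, changed by -0.65. The cyclin D1 gene *CCND1* rose alike, from 2169, 2371 and 2571 untreated to 4011, 3915 and 4323 with doxorubicin and from 2597, 2563 and 2604 in DMSO to 4540.1, 5124 and 4873 with nutlin-3, a mean of 0.84 (SE 0.058). Another *CCND1* probe set gave 0.40 with doxorubicin and 1.04 with nutlin-3 (interval of the difference -1.25 to -0.02). The likeness of its responses therefore depends on the probe set. The other D-type cyclins differed between the agents. *CCND2* had -0.55 and 0.93 and *CCND3* had 1.6 and -0.13 with doxorubicin and nutlin-3. The cyclin E1 gene *CCNE1* moved in opposite directions, 0.92 and -0.76, so that its mean of 0.08 was not called (limma, adjusted p = 0.29).

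In replication, 37 of 48 genes fell in the mean and 2 rose (median -0.58), but the median was -0.23 with doxorubicin and -0.97 with nutlin-3, and the difference between the responses was called for 39, of which 36 had the lower value with nutlin-3. The 7 that fell alike were *PRIM1*, *MCM7*, *WDHD1*, *TIMELESS*, *DBF4*, *POLE2* and *POLD1*. *PRIM1*, the catalytic primase subunit gene, read 4948, 5142 and 5394 on the untreated arrays, 2868, 2651 and 3268 with doxorubicin, 4789, 4838 and 4957 in DMSO and 2206, 2348 and 2436 with nutlin-3 and changed by -0.94 (SE 0.059). *MCM7*, of the replicative helicase, read 8067, 7999.6 and 7211 on the untreated arrays, 3912, 4467 and 4476 with doxorubicin, 6977, 6562 and 6535 in DMSO and 3319, 3680.1 and 3436 with nutlin-3 and changed by -0.90 (SE 0.057). For neither gene did treated arrays overlap those of their own control. By contrast the licensing factor gene *CDC6* had 0.92 with doxorubicin and -1.13 with nutlin-3, and the flap endonuclease gene *FEN1* 0.91 and -1.01, and neither mean was called.

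Homologous recombination and Fanconi genes showed the widest gap between the agents among the falling lists. The median was 0.04 with doxorubicin and -0.98 with nutlin-3, 17 of 23 fell in the mean and 1 rose, and all 17 called differences had the lower value with nutlin-3. The 3 that fell alike were *RAD54B*, a recombination translocase gene (-1.10, SE 0.093), the checkpoint kinase gene *CHEK1* (-1.01, SE 0.075) and *BARD1*, which encodes the partner of BRCA1 (-1, SE 0.063). *RAD54B* moved alike in 11 of 24 planned settings. *CHEK1* read 1289.8, 1621 and 1523 on the untreated arrays, 779.9, 696 and 654 with doxorubicin, 1766, 1612 and 1679 in DMSO and 768, 876 and 910.3 with nutlin-3, with every treated array below every control array. Other *CHEK1* probe sets gave -1.47 and -0.85, and -0.32 and -0.90, for doxorubicin and nutlin-3 in turn. The likeness of the *CHEK1* responses thus depends on the probe set. In deoxynucleotide synthesis 9 of 13 fell, 2 rose and 2 fell alike, *DTYMK*, the thymidylate kinase gene (-0.67), and *DCK*, the deoxycytidine kinase gene (-0.60).

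The steepest falls were outside the cell cycle. Of the 143 falling members 100 were in no list, and the 3 largest falls were of genes for secreted or surface proteins. *CXCL14* (chr5:135570679-135578991), a chemokine gene, read 4452, 5478 and 4094 on the untreated arrays, 1259, 1181 and 1230.5 with doxorubicin, 2314, 2149 and 2264 in DMSO and 781, 551 and 654 with nutlin-3. Its change was -1.83 (SE 0.085), -1.91 with doxorubicin and -1.75 with nutlin-3. As with *GASK1B*, DMSO stood below untreated, here by 1.04 (limma, adjusted p = 4.6e-05), and the nutlin-3 arrays were the lowest. *PCDH18*, a protocadherin gene, read 1422, 1156 and 959 on the untreated arrays, 418, 388 and 350.8 with doxorubicin, 1389, 1137 and 1294 in DMSO and 446, 345 and 419.8 with nutlin-3 and changed by -1.59 (SE 0.099). *SDC2*, the heparan sulfate proteoglycan syndecan-2, read 6597, 5081 and 5532 on the untreated arrays, 2147, 1957 and 2040.1 with doxorubicin, 6843, 5807 and 6261 in DMSO and 2439, 2263 and 2187 with nutlin-3 and changed by -1.46 (SE 0.069). Every treated array of both genes lay below every control array, and for *SDC2* each nutlin-3 array lay above each doxorubicin array.

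Genes for matrix and junction proteins were also among the 15 largest falls. *HAPLN1*, which encodes a protein that links hyaluronan to proteoglycans, changed by -1.29 (SE 0.076), with DMSO below untreated by 0.80 (limma, adjusted p = 0.00017). *MATN2*, a matrilin gene, changed by -1.27 (SE 0.074), and *GJA1*, which encodes the gap junction protein connexin 43, by -1.09 (SE 0.073). The peptidase gene *NAALAD2* (-1.36), the dehydrogenase gene *HSD17B11* (-1.21) and *AFF3*, of a family that acts in transcription elongation (-1.13), were the others of the 15 beside *RAD54B* and the cell division genes. *NAALAD2* was among the dimmer members, at 189, 101 and 158 with doxorubicin. It moved alike in 8 of 24 planned settings, and *AFF3* in 9.

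In several other programmes many genes were called in the mean and none moved alike. With 2.06% of all genes moving alike, a count of 0 in lists of this size is near the background and is not a result about them. For the counts in the mean, the shares over all genes tested were 26.9% higher and 24.9% lower. Histones and their chaperones fell in 12 of 17 with 0 alike. The MHC class I list rose in 10 of 14 with 0 alike, and its median was 0.94 with doxorubicin and 0.01 with nutlin-3. Secreted inflammatory and growth factors rose in 11 of 17 with 0 alike. The ATF4 and unfolded protein response list fell in 15 of 20 and rose in 2, and its median was -0.68 with doxorubicin and -0.12 with nutlin-3. Cholesterol synthesis fell in 11 of 15 and rose in 1. Reference genes had a median of -0.02, with 3 rising and 2 falling of 12. Ribosomal protein genes rose in 9 of 24, with 15 not called and a median of 0.10. Lysosome and autophagy genes rose in 11 of 19 and fell in 1, and NRF2 targets rose in 9 of 17 and fell in 4.

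The control groups themselves differed at some members. DMSO against untreated was called for 1930 genes, 14.1% of those tested (8.14% higher in DMSO and 5.98% lower), and for 59 of the 282 members. The count over all genes was 1236 without the first untreated array, 1185 without the second DMSO array and 1100 without the third. Among rising members, 16 were lower and 20 higher in DMSO, and among falling members 13 were lower and 10 higher. The largest such differences were those of *PRICKLE1* (-1.37), *GASK1B* (-1.13), *LRRN1* (-1.09) and *CXCL14* (-1.04), which were picked here for their size. Exchanging the control groups leaves the mean response as it is and changes the difference, and 115 of the 282 members then still moved alike, of 159 rising and 154 falling. *CDKN1A*, *FAS*, *CYFIP2*, *ANXA4*, *NCAPH*, *ASPM*, *CENPE* and *CENPA* were among the 115, and *GASK1B*, *ZMAT3*, *CD82*, *CXCL14* and *SDC2* were not. With all 6 control arrays pooled, 205 of the 282 still moved alike, of 247 rising and 231 falling. Both alternatives were chosen after the data were seen.

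Other probe sets of the same genes on the same arrays gave a further reading. For 81 rising members there were 162 other probe sets, of which 153 had higher values with both agents and 126 were called higher in the mean. The interval of the difference lay inside the bound for 28 of them. For 87 falling members there were 175, of which 148 had lower values with both agents, 136 were called lower and 3 higher, from *TMF1* and *DTYMK*. The interval lay inside the bound for 33. The direction of the members was thus shared by most of their other probe sets, and the closeness in size by few. The other probe sets are dimmer by the rule that took the brightest for each gene. The part of dimness in the unlike sizes was not tested.

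Near the bound, membership turned on small differences. *LMAN2L*, *MTMR11* and *CACNA2D4* were just inside, with intervals of -0.58 to 0.01, -0.58 to 0.06 and -0.24 to 0.58. *CARHSP1*, *DUT* and *DCLRE1A* were just outside, with intervals of -0.59 to 0.21, -0.59 to -0.12 and -0.59 to 0.59. *DCLRE1A* had equal changes with both agents (-0.90 and -0.89) and was left out by its spread alone. Of the 282 members, 4 had a small difference that was nonetheless called, *TPX2*, *RACGAP1*, *TIMELESS* and *SMCHD1*, at -0.37, 0.32, 0.30 and -0.31.

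The largest mean responses of all were not among the members. *PADI4*, a peptidylarginine deiminase gene, had a mean of 4.69 but 6.68 with doxorubicin and 2.69 with nutlin-3, and *GDF15*, the stress cytokine, had 5.46 and 3.55. *SERPINB5*, which encodes maspin, had responses of 3.93 and 3.58 from control means of 25.7 untreated and 7.93 in DMSO, with an interval of the difference of -0.45 to 1.16. The pseudogene *NBEAP1* had 4.15 and 3.55 from control means of 5.14 and 14.4, with an interval of -0.27 to 1.48. Among falls, *FGF21*, a metabolic hormone gene, had -3.18 and -2.19 (interval -1.87 to -0.12) and *INHBE*, an activin subunit gene, -2.99 and -2.01 (interval -2.22 to 0.25). For these 4 genes, unlike *PADI4* and *GDF15*, the interval reached into the bound, so a similar size was neither shown nor refuted. At least one group of each of the 4, and both control groups of *PADI4*, lay under the filter signal of 49.3, and their changes depend on the offset of 16.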

How the data were processed

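Expression was measured on 12 one-colour arrays. Linear signal intensities were deposited in the series table, which the authors made with MAS5, per the submitters' processing notes; its version and settings are not given in the sources used here. Here, log2(intensity + 16) was taken, the authors' scaling was kept, and 62 control probe sets and probe sets with a mean under the 40th percentile (signal 49.3) were left out. Each gene was read from its brightest probe set with 1 symbol (41097 of 54675; 1801 had several and 11777 were not listed); 13657 of 13673 genes had a current RefSeq symbol (GRCh38.p14). One limma 3.58.1 fit (R 4.3.3) with 4 group means and an intensity trend gave the mean response, each response, their difference and DMSO against untreated. Benjamini-Hochberg adjustment ran over all 13673 genes, with calls at adjusted p under 0.05, and intervals used the moderated variance.

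The members and the gene lists were chosen with earlier results of these data known. The rule named the 15 largest rises and 15 largest falls moving alike, up to 3 members a list in each direction, the 5 largest mean rises and falls, the 4 largest called differences of each sign among genes of the same direction, and 3 genes on each side of the bound. Other genes named were chosen after their values were seen. Motifs were matched by letters in RefSeq promoters with Python 3.11.15, and the fit was tested on simulated data. Replicate numbers did not pair the arrays. Lists of marker genes checked the cell type. The alternatives were other scalings, pseudocounts, filters, probe set choices, variance models, thresholds, and each array left out.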

Additional observations from a re-analysis of the deposited data

Results flagged for a closer look

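These genes had a called mean response in the same direction with both agents, but the difference between the responses was itself called (limma, adjusted p over all genes). Values are log2, doxorubicin response minus nutlin-3 response. *PADI4* differed by 3.98 (6.68 with doxorubicin and 2.69 with nutlin-3, SE 0.39, adjusted p = 8.4e-07); its control means, 14.6 untreated and 26.8 in DMSO, lay under the filter signal of 49.3, so its changes depend on the offset of 16 and are not exact folds. The protease inhibitor gene *CSTA* differed by 3.27 (4.65 and 1.38, adjusted p = 6e-10), the aldo-keto reductase gene *AKR1B10* by 2.84 (4.53 and 1.69, adjusted p = 5.4e-08) and *LRATD1* by 2.79 (5.06 and 2.27, adjusted p = 4.3e-09). *TREM2*, a myeloid receptor gene, differed by 2.19 (4.78 and 2.59, adjusted p = 0.0011), from control means of 82.3 untreated and 23.6 in DMSO, and *GDF15* by 1.91 (5.46 and 3.55, adjusted p = 0.00013).

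Falls with a larger log2 size with doxorubicin included those of *GPX8*, a peroxidase-like gene (-2.95, adjusted p = 2.7e-09), *SCEL* (-2.90, adjusted p = 4.7e-06, with a doxorubicin mean of 11.5, under the filter), *SHOC1* (-2.76, adjusted p = 3.5e-09) and the annexin gene *ANXA10* (-2.75, adjusted p = 6e-10). *SOSTDC1*, which encodes a secreted BMP and WNT antagonist, differed by -1.62 (-3.37 and -1.75, adjusted p = 0.023), but both treated means (34.8 and 17.3) lay under the filter and the controls differed, 554 untreated and 90.2 in DMSO (-2.33, adjusted p = 0.00069), so its changes depend on the offset and nutlin-3 gave the lower final signal. *COL8A1*, a collagen gene, differed by -1 (-2.93 and -1.93, adjusted p = 0.00046). *DUT*, the deoxyuridine triphosphatase gene, lay just outside the bound and differed by -0.36 (-0.94 and -0.59, adjusted p = 0.016).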

How the results depend on the processing

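Counts of genes moving alike, 139 rising and 143 falling as reported, moved with several choices. A 2-fold bound on the difference gave 426 and 419, and a least mean size of 2-fold gave 43 and 23. Centring arrays on their medians gave 72 rising and 130 falling, while quantile normalization gave 133 of each. Controls pooled, added after seeing the data, gave 247 and 231. Leaving out 1 array at a time gave 120 to 144 rising, 118 to 139 falling, 6610 to 6982 genes called for the mean and 4807 to 5331 for the difference. The replicate numbers did not pair the arrays: correlations of same-numbered deviations ran from -0.089 to 0.172, and the replicate block gave 147 rising, 152 falling and 7281 called for the mean. DMSO against untreated ranged from 1100 to 2091 genes with 1 array left out and was 832 at an adjusted p under 0.01. Of 282 members, 23 rising and 32 falling moved alike under all 24 planned settings counted, and 191 under at least 20. Those 24 kept the 1.5-fold size and bound. Of 1745 values of named genes under the alternatives, 1741 kept their direction and their side of the threshold, 3 changed side and 1 reversed, that of *LRATD1*, at -0.16 (limma, adjusted p = 0.592) from a probe set that is neither _x_at nor _s_at; the cause was not tested. Of 840 list counts, 49 moved by more than 1.5 times. Only 3 arrays per group limit the precision, and a dim gene with equal responses can miss the bound.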

Other observations

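Some members in no list moved alike under all 24 planned settings counted, which kept the 1.5-fold size and bound. They included genes of signalling and the cell surface, picked here after their values were seen. *CD44*, the hyaluronan receptor gene, read 4831, 5267 and 5439 on the untreated arrays, 10212, 8569 and 9786 with doxorubicin, 7220.2, 5935 and 6084 in DMSO and 12186, 11817 and 10517 with nutlin-3, and rose by 0.86 (SE 0.067). Other *CD44* probe sets with mean signals of 1618 to 2865 rose by 1.08 to 1.60, so the size of its rise depends on the probe set. Some of these moved alike, such as that with 1.25 and 1.21, and others did not, such as that with 1.92 and 1.28 (doxorubicin and nutlin-3 in turn). *STAT3*, a transcription factor gene of cytokine signalling, read 2981, 2933 and 2714 on the untreated arrays, 5309, 5045 and 4620.0 with doxorubicin, 2328, 2367 and 2303 in DMSO and 3708, 3789 and 3625 with nutlin-3, and rose by 0.73 (SE 0.054). Neither gene had a treated array below a control array of its own comparison. *BHLHE40*, a repressor gene of the circadian system, rose by 1.19, the syndecan-4 gene *SDC4* by 1.13 and the myosin light chain kinase gene *MYLK* by 1.22. The syndecans thus moved apart, since *SDC2* changed by -1.46. Among falls of this kind, *TGFB2*, a growth factor gene, read 6447, 5521 and 5839.5 on the untreated arrays, 4196, 3709 and 3768 with doxorubicin, 7901, 6973 and 7426 in DMSO and 4708, 4539.5 and 3862 with nutlin-3, a change of -0.69 (SE 0.065), and *SERPINH1*, which encodes a collagen chaperone, changed by -0.74. With the controls exchanged *CD44*, *STAT3*, *SDC4* and *TGFB2* did not move alike, and with them pooled *STAT3* did not.

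Other members in no list were *ISCU*, the iron-sulfur cluster scaffold gene (1.40), the insulin-like growth factor receptor gene *IGF1R* (0.67) and the neurotrophin gene *BDNF* (0.66). Rises were smaller by other probe sets of *IGF1R* (0.56, 0.31 and 0.22) and of *BDNF* (0.38). Base excision and single-strand break repair genes *UNG* and *PARP2* changed by -0.92 and -0.96, against the rises of *DDB2*, *XPC* and *POLH*. Long non-coding RNA genes were also present, such as *LINC00537* (1.44), *LINC00475* (0.71) and *FGD5-AS1* (-0.64). Other probe sets of *LINC00537* gave 0.35 and 0.20, so the size of its rise depends on the probe set. It moved alike in 13 of 24 planned settings.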
